A study of Mus musculus with 155 samples.

Results

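Groucho/TLE corepressors and LIM-only (LMO) cofactors are small families of proteins that do not bind DNA themselves and act through the transcription factors that recruit them. The 10 genes of these families described here, Tle1, Tle2, Tle3, Tle4, Aes (Tle5 in newer annotations), Tle6, Lmo1, Lmo3, Lmo4 and Ldb1, were taken by name from the 55471 genes of the RNA-seq count tables. They were chosen by the measured values of Tle6 and Lmo3, which were far higher in oligodendrocyte progenitor cells (OPCs) expressing H3.3K27M than in OPCs expressing WT-H3.3, so the values of that comparison are given as a description, with no test.

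Full-length TLE proteins (Tle1 to Tle4) assemble through an N-terminal domain and bind, through their C-terminal WD repeats, to Hes and Hey, Runx, Tcf/Lef, Nkx and Pax factors, which then repress their targets. Aes lacks the WD repeats and is usually described as an antagonist of the longer TLE proteins. Tle6 is a divergent member best known as a subunit of the subcortical maternal complex of oocytes and early embryos. LMO proteins consist mostly of a pair of LIM domains that bind Ldb1, the adaptor that joins LIM-homeodomain factors and GATA and bHLH proteins into larger complexes, and several of them, Lmo1, Lmo3 and Lmo4 among them, are known from the developing nervous system.

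All cells came from KH2 mouse embryonic stem cells (ESCs) that carry 1 extra, doxycycline (Dox)-inducible copy of SNAP-HA-tagged H3.3, with the WT, the K27M or the K27L sequence. H3.3K27M, the histone mutation of diffuse midline glioma, inhibits Polycomb Repressive Complex 2 (PRC2), whereas K27L removes the same lysine without that general inhibition. The comparisons ask what each mutation changes in ESCs and after differentiation. Every group carried the transgene and received Dox, so no group shows cells without tagged H3.3, and a possible duplication of chromosome 8 was reported for all clones. ESC libraries were made after 4, 8, 24 and 72 h of Dox, 2 per time point, from the WT, K27M and K27L lines and from WT-H3.3 cells given the PRC2 inhibitor GSK343 (32 libraries). Cells differentiated with retinoic acid (RA) gave 1 library per line at 24 and at 72 h of Dox (6 libraries), and OPCs of the WT-H3.3 and H3.3K27M lines gave 1 library at each of these times (4 libraries). By the study's methods replicates were biological and made some weeks from each other, but the labels tie no library to a clone, and RA-treated cells and OPCs have 1 library per line and time here. For these states it is not given per library whether the 24 and 72 h libraries of a line come from separate differentiations.

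Library totals ran from 6590661 to 16083610 counts in WT-H3.3 and H3.3K27M ESCs, from 1247934 to 8724336 with GSK343, from 2239137 to 22269533 in RA-treated cells and from 7499258 to 12387113 in OPCs. One H3.3K27L ESC library (72 h, replicate 2) held only 68378 counts, against at least 6336754 in the others of that line; it stayed in the fits, and levels of H3.3K27L ESCs are given without it. OPC libraries held the OPC marker Olig2 at 256 to 306 CPM (counts per 1000000 counts of the library) in WT-H3.3 and at 924 to 927 CPM in H3.3K27M. Of 6 OPC genes listed, 2 (Pdgfra and Sox10) had a mean under 1 CPM in H3.3K27M OPCs, and 0 did in WT-H3.3 OPCs. RA-treated cells, labelled as neural progenitors, held Olig2 at 0 to 1.84 CPM, a summed 61.2 to 437 CPM of 4 neural progenitor genes and a summed 357 to 1773 CPM of 6 extraembryonic endoderm genes, and are called RA-treated cells here.

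In mm9 coordinates Tle1 is at chr4:71778176-71861953 (minus strand), Tle3 at chr9:61220190-61266297 (plus), Tle4 at chr19:14522562-14672473 (minus), Lmo1 at chr7:116282086-116313822 (minus), Lmo3 at chr6:138311439-138530489 (minus), Lmo4 at chr3:143851494-143868184 (minus) and Ldb1 at chr19:46107083-46119704 (minus). Aes at chr10:81022239-81029107 (plus), Tle2 at chr10:81037306-81053590 (plus) and Tle6 at chr10:81053649-81063818 (minus) lie within 41580 bases of each other. Tle2 and Tle6 run towards each other and their ends are 58 bases apart. The strand setting of the counting is not given in the sources used here, so reads at the facing ends of Tle2 and Tle6 cannot be told apart with certainty.

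The promoter windows of the 3 genes with the largest difference in OPCs are shown because H3K27 methylation by PRC2 is known to favour promoters rich in CG dinucleotides, which are in capitals. Each window runs from 250 bases before to 50 bases after the most upstream RefSeq start (GRCm38.p6 coordinates, which differ from the mm9 positions above), written 5' to 3' on the strand of the gene: Tle6 at chr10:81600851-81601150 (minus), Tle2 at chr10:81575037-81575336 (plus) and Lmo3 at chr6:138581919-138582218 (minus).
Tle6: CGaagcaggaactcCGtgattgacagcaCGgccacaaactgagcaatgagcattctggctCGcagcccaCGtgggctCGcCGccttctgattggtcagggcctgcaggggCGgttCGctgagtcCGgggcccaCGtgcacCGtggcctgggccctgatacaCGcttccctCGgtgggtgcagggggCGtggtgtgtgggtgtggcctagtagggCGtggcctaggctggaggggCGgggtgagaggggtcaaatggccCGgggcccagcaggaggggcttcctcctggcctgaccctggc
Tle2: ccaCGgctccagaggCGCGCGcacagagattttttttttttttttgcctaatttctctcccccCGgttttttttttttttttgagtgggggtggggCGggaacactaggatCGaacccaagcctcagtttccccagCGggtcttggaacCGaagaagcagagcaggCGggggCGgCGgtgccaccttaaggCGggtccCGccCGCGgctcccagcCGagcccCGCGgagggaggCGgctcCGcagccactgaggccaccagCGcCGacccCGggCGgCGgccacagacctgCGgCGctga
Lmo3: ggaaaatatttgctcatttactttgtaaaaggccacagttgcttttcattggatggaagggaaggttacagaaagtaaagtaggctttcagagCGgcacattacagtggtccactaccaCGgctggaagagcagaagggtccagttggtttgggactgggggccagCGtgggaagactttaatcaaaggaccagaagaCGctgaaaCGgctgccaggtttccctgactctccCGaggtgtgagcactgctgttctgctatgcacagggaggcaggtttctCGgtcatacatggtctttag
The Tle2 window held 28 CG dinucleotides, the Tle6 window 18 and the Lmo3 window 7, and the median of 32841 RefSeq windows of mouse was 7. These windows leave out 1 chromosome, which holds no member, and are meant by all windows below. At least as many as in Tle2 were found in 14.2% of all windows, as in Tle6 in 29.7% and as in Lmo3 in 52.1%. The windows of the other members held 52 in Lmo4, 41 in Ldb1, 40 in Tle1, 29 in Lmo1, 28 in Tle4 and 21 in Tle3. The E box CACGTG, bound by many bHLH factors, occurred 2 times in the Tle6 window and 1 time each in those of Tle3 and Tle4, and 7.15% of all windows held it (it reads the same on both strands). The N box CACNAG, bound by Hes factors, was searched on both strands; Tle3 held 3, Tle2 held 2 and Lmo1 held 1, the other windows held none, and 42.5% of all windows held at least 1. These matches describe letters and not binding.

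Tle6 was counted at 284 CPM (24 h of Dox) and 265 CPM (72 h) in H3.3K27M OPCs and at 15.7 and 11.2 CPM in WT-H3.3 OPCs. Its log2 fold change of 4.36 (standard error, SE, 0.17, n = 2 against 2) was number 22 from the top among the 12467 genes fitted. Tle2, a full-length corepressor, stood at 32.1 and 25.4 CPM against 1.78 and 1.81 CPM, a log2 fold change of 4.01 (SE 0.25). Both H3.3K27M libraries lay far above both WT-H3.3 libraries for either gene. Lmo3, an LMO cofactor expressed in neurons, was at 60.0 and 63.6 CPM against 5.33 and 5.24 CPM, a log2 fold change of 3.56 (SE 0.18). Tle6, Tle2 and Lmo3 were the only members with a log2 difference above 2 in OPCs.

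Aes was at 736 and 711 CPM in H3.3K27M OPCs and at 287 and 276 CPM in WT-H3.3 OPCs, a log2 fold change of 1.38 (SE 0.13). Lmo1 was at 76.3 and 62.1 CPM against 26.0 and 32 CPM, a log2 fold change of 1.27 (SE 0.17). Tle6, Tle2, Lmo3, Aes and Lmo1 (5 of 10) thus lay above a fold of 2 and no member below a fold of 0.5, a count to which the choice of the genes contributed and from which nothing is read. In the other comparisons a gene is called at an adjusted p under 0.05 with a fold above 2 or below 0.5; of all 12467 genes in OPCs 12.9% met that rule in the higher direction, 15% in the lower and 27.9% in either. Ldb1 stood just outside the fold limit at 0.83 (SE 0.15), with 55.6 and 46.7 CPM against 29.0 and 28.9 CPM. For each of these 6 genes the libraries of the 2 lines did not overlap. The share of all genes without overlap was not counted, here or in the other comparisons, so nothing is read from it.

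The other full-length TLE genes did not share the pattern of Tle2. Tle3 was at 177 and 173 CPM in H3.3K27M OPCs and at 307 and 258 CPM in WT-H3.3 OPCs, a log2 fold change of -0.68 (SE 0.13). Tle4 lay at 78.5 and 73.3 CPM against 49.4 and 55.6 CPM, with a log2 difference of 0.54 (SE 0.14). Tle1 was at 29.7 and 33.5 CPM against 31.7 and 38.9 CPM, with a log2 difference of -0.14 (SE 0.17), and Lmo4 at 430 and 492 CPM against 459 and 429 CPM, with one of 0.07 (SE 0.13). The libraries of the 2 lines overlapped for Tle1 and Lmo4 and were apart for Tle3 and Tle4.

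**Figure D1:**
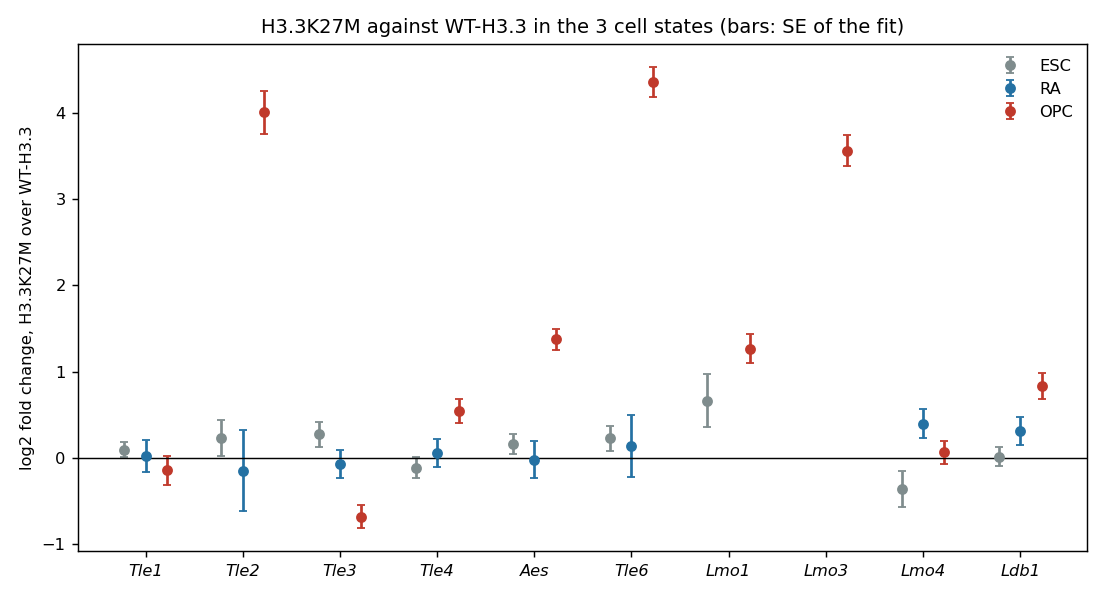
Log2 fold change of H3.3K27M over WT-H3.3 (y axis, points) for each gene (x axis) in ESCs, RA-treated cells and OPCs; bars are the SE of the fit. Tle6 (4.36), Tle2 (4.01) and Lmo3 (3.56) stand apart in OPCs, whereas the points of ESCs and RA-treated cells lie between -0.36 and 0.67; Lmo3 was fitted in OPCs alone and Lmo1 in ESCs and OPCs.

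On chromosome 10 the difference was uneven among neighbours. Gna11, upstream of Aes, was at 137 and 117 CPM in H3.3K27M OPCs and at 67.6 and 83.7 CPM in WT-H3.3 OPCs. Ankrd24, beyond Sirt6, was at 29.1 and 27.6 CPM against 16.6 and 14.6 CPM. BC025920 and Sirt6, the genes next to Tle6 on its far side, were at 0.800 to 4.27 CPM in all 4 libraries, and the log2 fold change of Sirt6 was -0.02. Gna15 and S1pr4 had no read in OPCs.

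**Figure D2:**
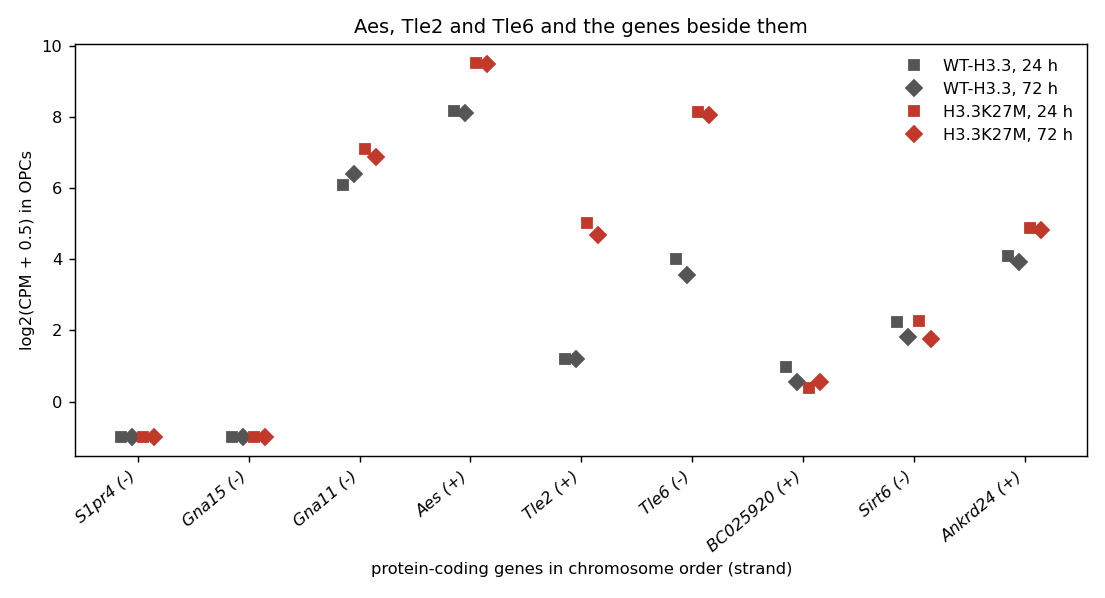
Level in the 4 OPC libraries, as log2(CPM + 0.5) on the y axis, of the protein-coding genes around Aes, Tle2 and Tle6 in chromosome order on the x axis, with the strand in brackets. The H3.3K27M libraries (red) lie far above the WT-H3.3 libraries (grey) at Tle2 and Tle6 and less far at Gna11, Aes and Ankrd24, and the lines overlap at Sirt6.

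Markers of other cells differed between the OPC lines as well. The summed level of 6 fibroblast genes was 515 to 566 CPM in WT-H3.3 OPCs and 7.71 to 13.9 CPM in H3.3K27M OPCs; Col3a1 and Dcn were above 0 in all 4 libraries. All 6 of these genes were called lower in H3.3K27M. Over all 12467 genes 15% were called lower and 12.9% higher. The summed level of 6 OPC genes was 479 to 505 CPM against 1617 to 1742 CPM, with 4 called higher, Olig1, Olig2 and Cspg4 among them, and 2, Pdgfra and Sox10, called lower. The summed level of 7 neuronal genes was 718 to 719 CPM against 1534 to 1580 CPM, carried by Mtap2, but of the 6 tested 4 were called lower and 2 higher (median log2 fold change -1.32). Stmn2, 1 of the 4, was at 105 to 147 CPM in WT-H3.3 and at 0.48 to 0.80 CPM in H3.3K27M. Of 5 astrocyte and radial glia genes 3 were called lower and 0 higher (median -1.79), and all 5 extraembryonic endoderm genes tested were called lower. The part of cell makeup in the member differences was not tested, and more cells of a type cannot be told apart from more RNA per cell in such bulk samples. Of the 5 other genes of the subcortical maternal complex, 4 had no read in H3.3K27M OPCs (Ooep, Nlrp5, Padi6 and 2410004A20Rik). In WT-H3.3 OPCs Padi6 and 2410004A20Rik had no read either, and Ooep and Nlrp5 had a mean under 1 CPM. The fifth gene, Zbed3, was at 16.3 to 16.5 CPM in H3.3K27M and at 9.61 to 9.91 CPM in WT-H3.3 OPCs. The summed level of 5 oocyte genes was 6.40 to 7.35 CPM in H3.3K27M and 9.45 to 12.7 CPM in WT-H3.3 OPCs.

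Factors that recruit TLE proteins moved in both directions in OPCs. Of 25 such genes 19 were tested, and 7 rose and 7 fell (edgeR, adjusted p under 0.05 and fold limit as above). Hes6, a Hes factor of neuronal precursors, rose by 2.11 in log2 units (SE 0.15, adjusted p = 1.14e-06), Hes5, a Notch target, by 2.36 (SE 0.24, adjusted p = 1.46e-05) and Prdm1, a zinc-finger repressor, by 2.72 (SE 0.28, adjusted p = 1.77e-05). Hey1, another Notch target, fell by 4.18 (SE 0.19, adjusted p = 9.03e-08), Nkx6-2, a homeodomain factor of the ventral neural tube, fell by 4.87 (SE 0.31, adjusted p = 5.66e-07) and Runx1, known from blood formation, fell by 2.18 (SE 0.25, adjusted p = 3.53e-05). Among partners of LIM complexes, 8 of the 21 counted were tested, and 1 rose and 4 fell. Lmo2, the blood-forming LMO gene, rose by 1.25 (SE 0.38, adjusted p = 0.0166), whereas Rlim, a ubiquitin ligase of Ldb1 complexes, fell by 1.34 (SE 0.13, adjusted p = 1.13e-05) and Ldb2, the paralog of Ldb1, fell by 3.28 (SE 0.56, adjusted p = 0.000607). Gata2 was at 3.15 to 3.62 CPM in WT-H3.3 OPCs and had no read in H3.3K27M OPCs (adjusted p = 0.000109). The median log2 fold change of the tested Groucho partners was 0.34 and that of the LIM partners -0.76, beside 0.00063 over all genes.

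In ESCs no member was called in H3.3K27M against WT-H3.3 (0 of 9 tested, against 0.0143% of 14012 genes; edgeR, 1619 genes at an unadjusted p under 0.05). Tle6 ranged from 7.93 to 17.2 CPM (median 13.6) in the 8 H3.3K27M libraries and from 8.27 to 14.7 CPM (median 11.3) in the 8 WT-H3.3 libraries, and the groups overlapped. The difference was 0.23 on the log2 scale with SE 0.15 (adjusted p = 0.559), higher in 7 of 8 pairs of libraries of the same time and replicate number. Aes was higher in 8 of 8 pairs (0.16, SE 0.11, adjusted p = 0.596) and Lmo4 in 1 of 8. Tle2 ranged from 1.77 to 4.26 CPM against 1.39 to 3.3 CPM, a log2 difference of 0.23 with SE 0.21 (adjusted p = 0.693). The largest member difference was that of Lmo1, at 0.67 (SE 0.31, adjusted p = 0.408), a gene with 0.993 to 2.73 CPM in H3.3K27M and 0.426 to 1.84 CPM in WT-H3.3 ESCs. The median log2 fold change of the 9 members was 0.16, beside -0.0048 over all genes. None of the 16 Groucho partners, 10 LIM partners and 4 maternal complex genes tested was called for H3.3K27M or for GSK343.

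Lmo3 was hardly detected outside OPCs. WT-H3.3 ESCs held 1 read of it in 96543383 counts and H3.3K27L ESCs 1 read in 71016672. No read was found in 67465366 counts of H3.3K27M ESCs, which allows a level of up to 0.0445 CPM by the limit of 3 reads, or in 51186121 counts with GSK343 (up to 0.0586 CPM). In RA-treated cells 1 read was found in H3.3K27L and none in the other lines (up to 0.412 CPM in WT-H3.3 and 0.118 CPM in H3.3K27M). The exact 95% Poisson interval of the pooled level was 4.39 to 6.32 CPM in WT-H3.3 OPCs and 58.1 to 65.9 CPM in H3.3K27M OPCs; intervals and limits cover counting error only.

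H3.3K27L gave no called member in ESCs either (0 of 9, against 3.43% of 14012 genes). Tle6 ranged from 6.31 to 10.5 CPM (median 8.41) in 7 H3.3K27L libraries, and 3 of them lay below all WT-H3.3 libraries. The log2 difference was -0.43 with SE 0.16 and an adjusted p of 0.0971. Ldb1 ranged from 177 to 226 CPM (median 199.6) in the same 7 libraries and from 136 to 175 CPM (median 163.5) in WT-H3.3 ESCs, and the groups did not overlap. How many of all genes did the same was not counted. The difference was 0.29 on the log2 scale with SE 0.12 (adjusted p = 0.133) with the library of 68378 counts and 0.35 (adjusted p = 0.0139) without it, in both cases under the fold limit. Without replicate 1 at 72 h, which leaves that library alone for its time, it was -0.14 (adjusted p = 0.779). Among the same partners, 1 of 16 for Groucho and 1 of 10 for LIM complexes rose, and 1 of the LIM partners fell. The factors Nkx6-2 (log2 fold change 1.16, SE 0.19, adjusted p = 0.000403) and Gata2, a partner of LIM complexes (1.88, SE 0.29, adjusted p = 0.000219), rose in H3.3K27L ESCs. Lmx1a fell by 1.90 (SE 0.40, adjusted p = 0.00385). The maternal complex gene 2410004A20Rik (Khdc3) fell by 1.61 (SE 0.44, adjusted p = 0.0230).

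GSK343 gave 0 called members of 9 and 0 called genes of 14012 (0%), with 678 genes at an unadjusted p under 0.05 by edgeR and 0 calls by DESeq2. Tle6 ranged from 8.10 to 16.1 CPM (median 11.6) with the inhibitor, at a log2 difference of 0.01 (SE 0.15). Lmo4, which binds Ldb1 in many tissues, ranged from 12.1 to 17.4 CPM (median 14.7) with GSK343 and from 9.45 to 15.4 CPM (median 11.3) without it, a log2 difference of 0.35 (SE 0.21, adjusted p = 0.973). The groups overlapped.

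Within H3.3K27M ESCs the level of Lmo4 followed the replicate number. It was 8.83 to 13.8 CPM in the 4 libraries numbered 1 and 4.55 to 7.48 CPM in the 4 numbered 2, which did not overlap. WT-H3.3 libraries numbered 1 were at 10.7 to 15.4 CPM and those numbered 2 at 9.45 to 12.3 CPM. The log2 fold change of Lmo4 between these lines was -0.36 (SE 0.21, adjusted p = 0.533).

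Lmo1 was the only member called between late (24 and 72 h) and early (4 and 8 h) Dox in ESCs, over all 4 groups together (1 of 9, against 1.29% of 14012 genes). It ranged from 0.316 to 2.73 CPM at 4 h, from 0.746 to 2.40 CPM at 8 h, from 0.263 to 2.50 CPM at 24 h and from 0 to 1.05 CPM at 72 h, where the library of 68378 counts was left out of the ranges. The means were 1.37, 1.34 and 1.42 CPM at 4, 8 and 24 h and 0.502 CPM at 72 h (30 reads), also without that library. Only the 72 h mean thus lay below those of early Dox. The fitted difference of late against early Dox was -1.15 on the log2 scale with SE 0.32 (adjusted p = 0.0192), and both 72 h libraries with GSK343 had no read of Lmo1. The call was lost without replicate 2 of H3.3K27L at 4 h (log2 fold change -1.03, adjusted p = 0.0576), and without replicate 1 of H3.3K27L at 72 h (-1.79, adjusted p = 0.179), where the library of 68378 counts stands alone for its group, and DESeq2 gave -0.98, short of the fold limit. Over 38 alternatives the adjusted p ran from 0.00432 to 0.179. Tle4 (-0.27, SE 0.09, adjusted p = 0.0316) and Aes (-0.25, SE 0.08, adjusted p = 0.0359) were lower late and under the fold limit. No Groucho or LIM partner was called.

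**Figure D3:**
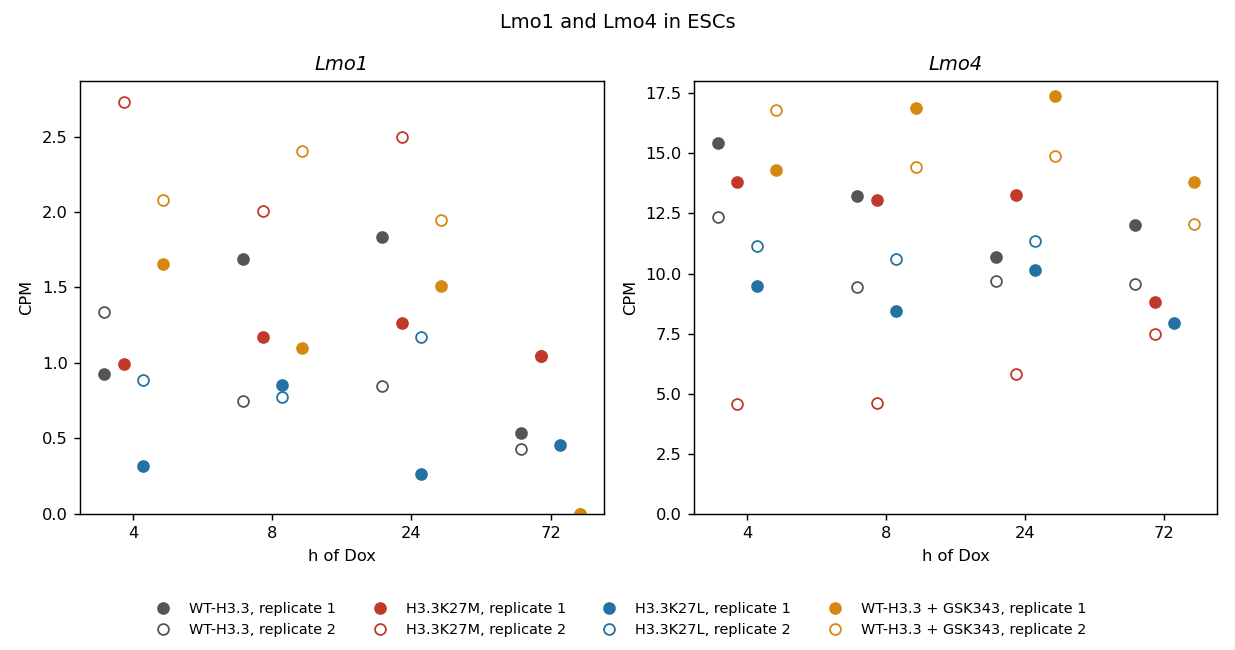
Level in CPM (y axes) of Lmo1 (left) and Lmo4 (right) in each ESC library by hours of Dox (x axes, evenly spaced), with colours for the groups and filled and open circles for replicates 1 and 2. All Lmo1 points at 72 h lie at or below 1.05 CPM, and the open red circles of Lmo4 (H3.3K27M, replicate 2) lie at 4.55 to 7.48 CPM; the H3.3K27L library of 68378 counts is not drawn.

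In RA-treated cells no member was called in H3.3K27M (0 of 8, against 0.0163% of 12233 genes) or in H3.3K27L (0 of 8, against 3.64%) relative to WT-H3.3, with Dox time in the model. Tle6 was at 4.80 (24 h) and 9.66 CPM (72 h) in H3.3K27M, at 5.76 and 8.87 CPM in H3.3K27L and at 5.35 and 6.25 CPM in WT-H3.3, and the lines overlapped. Tle1 was at 82.0 and 133 CPM in H3.3K27L and at 63.2 and 68.8 CPM in WT-H3.3, a log2 difference of 0.65 with SE 0.18 (adjusted p = 0.0504). Over 12 alternatives it ran from 0.38 to 0.94. The summed extraembryonic endoderm genes were at 1657 to 1773 CPM in H3.3K27L and at 614 to 811 CPM in WT-H3.3, and their part was not tested. The effect on Tle1 stood 0.81 above that in ESCs (SE 0.26), with an unadjusted p of 0.00487 and an adjusted p of 0.243 over 14889 genes in the edgeR fit, so it did not pass. Of 9 members tested for a difference in effect between RA-treated cells and ESCs 0 were called for H3.3K27M (0% of 14889 genes, 623 at an unadjusted p under 0.05 by edgeR, 1 gene by DESeq2) and 0 for H3.3K27L (0.201%). Of 17 Groucho partners tested in H3.3K27L 2 rose, Hey2 (1.87, SE 0.46, adjusted p = 0.0312) and Nkx6-1 (1.87, SE 0.51, adjusted p = 0.0469), and of 11 LIM partners 1 fell, Lmx1a (-1.33, SE 0.34, adjusted p = 0.0346), whereas no partner was called in H3.3K27M.

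Several members differed between the 24 and 72 h RA libraries of all 3 lines (3 of 8 called, against 42.9% of 12233 genes). Lmo4 was at 27.3, 39.4 and 35.5 CPM at 24 h and at 121, 155 and 121 CPM at 72 h in the WT-H3.3, then the K27M, then the K27L line, a log2 difference of 2.19 with SE 0.14 (adjusted p = 5.09e-08). Its partner Ldb1 went the other way, from 133, 182 and 176 CPM to 64.3, 74.4 and 65.5 CPM, a log2 difference of -1.03 with SE 0.14 (adjusted p = 2.63e-05). That value lies at the fold limit and fell short of it with DESeq2 and with size factors of the relative log expression method, just under the limit in both, and without the H3.3K27L library at 24 h (-0.96) or at 72 h (-0.92). Tle2 was at 4.95, 4.94 and 5.76 CPM at 24 h and at 1.34, 0.644 and 1.53 CPM at 72 h (3, 2 and 5 reads), a log2 difference of -1.95 with SE 0.46 (adjusted p = 0.00245). No library of one time overlapped with those of the other for these 3 genes, and how many of all genes did the same was not counted.

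Tle1 (0.75, SE 0.15, adjusted p = 0.00064), Tle6 (0.90, SE 0.29, adjusted p = 0.0145) and Tle3 (0.36, SE 0.13, adjusted p = 0.0244) were higher at 72 h and under the fold limit. Tle6 passed it without the WT-H3.3 library at 24 h (1.04) or at 72 h (1.09). Among the factors that recruit TLE proteins 7 of 17 tested rose and 2 fell, beside 42.9% of all 12233 genes called in either direction. Hes1 was at 1.82 (SE 0.13, adjusted p = 1.59e-07) and Tcf7l1, a repressor of Wnt targets, at 1.62 (SE 0.14, adjusted p = 8.04e-07), whereas Tcf7 fell by 1.27 (SE 0.17, adjusted p = 2.46e-05). Of 11 LIM partners tested 1 rose and 3 fell; Lmx1a, a LIM-homeodomain factor of the roof plate and midbrain, rose by 2.99 (SE 0.26, adjusted p = 5.90e-07). How long the 24 h libraries had RA and which kit each library used are not given in the sources used here, and neither can be told apart from Dox time.

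The member with the largest difference between RA-treated cells and ESCs was Lmo4. At 24 h of Dox it was 1.60 higher in log2 units (SE 0.18, adjusted p = 6.02e-08) and at 72 h 3.73 (SE 0.19, adjusted p = 1.07e-13), from 4.55 to 17.4 CPM over 31 ESC libraries to 27.3 to 155 CPM over 6 RA libraries. State cannot be told apart from the separate library sets. The summed extraembryonic endoderm genes were also higher, from 4.04 to 17.2 CPM in ESCs to 357 to 1773 CPM. All 5 fibroblast genes and all 4 retinoic acid response genes tested were called higher at both times as well. Among the RA-treated lines H3.3K27M had the lowest endoderm sum (357 to 592 CPM) and the highest Lmo4 at each time. The part of these lists was not tested. Called members were 3 of 9 at 24 h (against 43.3% of 14889 genes) and 4 of 9 at 72 h (against 59.2%). Aes fell by 1.44 at 24 h (SE 0.19, adjusted p = 6.03e-07) and fell by 1.65 at 72 h (SE 0.20, adjusted p = 1.39e-07), from 123 to 233 CPM in ESCs to 40.7 to 86.1 CPM.

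Tle6 fell by 1.35 at 24 h (SE 0.24, adjusted p = 3.43e-05) and was at -0.34 at 72 h (SE 0.27, adjusted p = 0.251), where DESeq2 and the size factors of the relative log expression method turned the sign (0.081 with both). Ldb1 fell by 1.45 at 72 h (SE 0.20, adjusted p = 8.21e-07) and was at -0.16 at 24 h (SE 0.18, adjusted p = 0.442). Tle1 rose by 1.27 at 72 h (SE 0.15, adjusted p = 9.41e-08), a call lost with WT-H3.3 libraries alone (0.76, adjusted p = 0.0199, the highest of 25 alternatives). These size factors moved the median of all genes at 72 h from -0.21 to 0.21 and the called genes from 3966 higher and 4843 lower to 4947 higher and 3797 lower, and the Ldb1 value to -1.03. Tle2 was at -1.01 at 72 h (SE 0.46, adjusted p = 0.0522) and passed the rule with a replicate block (-1.08, adjusted p = 0.0458), but was at -0.59 with the other size factors (adjusted p = 0.254). Its adjusted p ran from 0.0336 to 0.489 over 25 alternatives.

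Of 20 Groucho partners tested 10 rose and 5 fell at 24 h and 11 rose and 6 fell at 72 h. Over all 14889 genes 43.3% were called at 24 h and 59.2% at 72 h. Among the partners were Tcf7l2, a Wnt pathway factor (1.74 and 3.29), which rose at both times, and Otx2, a factor of early neural and pluripotent cells, which fell at both. Of 14 LIM partners tested 11 rose and 0 fell at 24 h, with Ssbp3 and Ssbp2, which stabilise Ldb1, at 2.21 and 3.08 (adjusted p = 5.80e-12 and 3.07e-10). At 72 h 7 rose and 1 fell. Of the maternal complex genes 2 of 3 tested fell at both times, Ooep (-6.62 at 24 h and -3.27 at 72 h) and 2410004A20Rik.

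**Figure D4:**
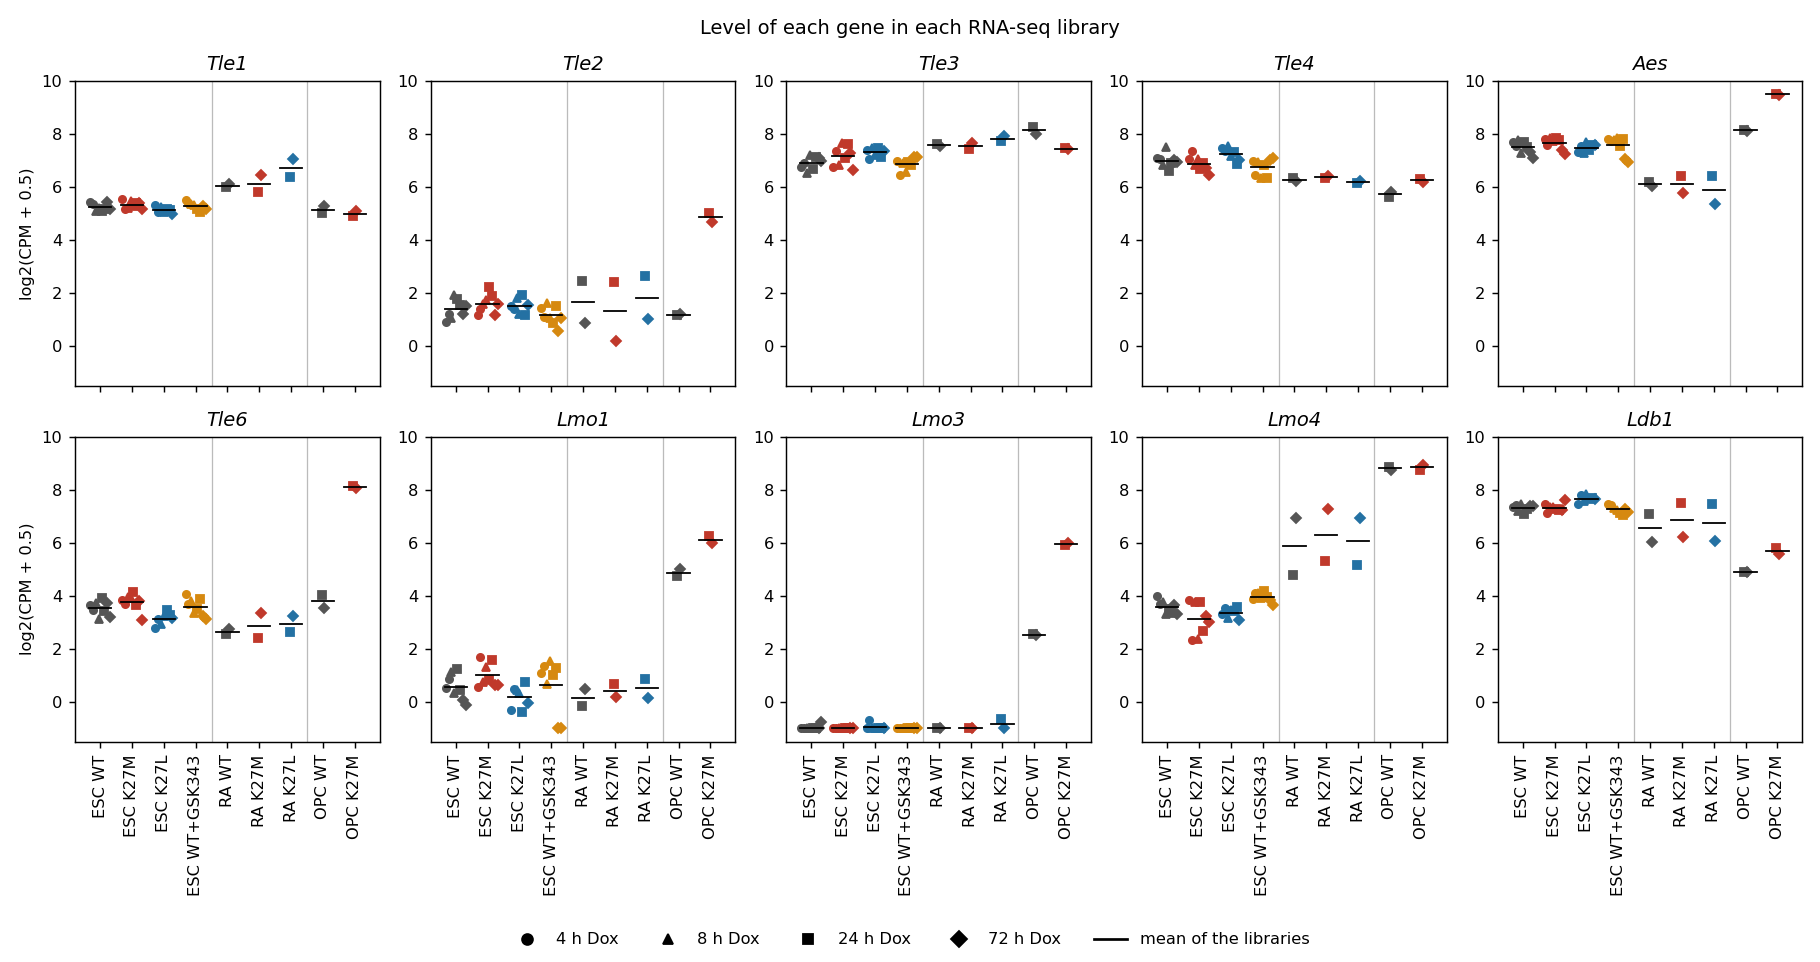
Level of each gene, as log2(CPM + 0.5) on the y axes, in the libraries of each state and line on the x axes, with a symbol for each Dox time and a line at the mean of the libraries. Tle6, Tle2 and Lmo3 are far higher in H3.3K27M OPCs than elsewhere, Lmo4 is lowest in ESCs, intermediate in RA-treated cells and highest in OPCs, and Ldb1 is lowest in OPCs; the library of 68378 counts is not drawn.

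Set side by side with no test, since OPCs were counted in a table of their own, Tle6 in WT-H3.3 OPCs (11.2 to 15.7 CPM) lay within the range of the 31 ESC libraries (6.31 to 17.2 CPM), and so did Tle2 (1.78 to 1.81 CPM, against 1.01 to 4.26 CPM). Lmo1 (26.0 to 76.3 CPM in OPCs, at most 2.73 CPM in ESCs and 1.34 CPM in RA-treated cells) and Lmo4 (429 to 492 CPM in OPCs) were highest in OPCs of either line. Ldb1 was lowest there, at 28.9 to 55.6 CPM against 64.3 to 182 CPM in RA-treated cells and 130 to 226 CPM in ESCs. For Tle3 the ranges of ESCs (86.7 to 202 CPM), RA-treated cells (172 to 243 CPM) and OPCs (173 to 307 CPM) overlapped.

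The genes whose level ran most like that of Tle6 over the 42 libraries were Bri3bp (Spearman 0.84), Glrx (0.83) and Ppp1r1b (0.82), of 13446 genes whose mean reached 1 CPM. Bri3bp was at 112 to 124 CPM in H3.3K27M OPCs and at 91.7 to 95.2 CPM in WT-H3.3 OPCs. For Lmo3 they were Gkn2 and Gkn1 (both 0.78) and a gene without a symbol in the annotation (0.74), but Lmo3 had no read in 35 of the 42 libraries. Gkn2 was at 6.26 to 8.93 CPM in H3.3K27M OPCs and at 137 to 223 CPM in WT-H3.3 OPCs, the reverse of Lmo3. These correlations share library and depth and are given as a description.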

How the data were processed

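The authors aligned RNA-seq reads to mm9 with STAR 2.7.1 and deposited raw read counts per gene in 3 tables; the counting program and its strand setting are not given in the sources used here, and the library kit (QuantSeq 3' or KAPA mRNA) is not given per library. The counts were used as deposited for 42 libraries. The ChIP-seq and human data were not analysed here. Of 55471 genes, 32589 were matched to the NCBIM37 annotation, and chromosome 8 (5.85% of counts) was left out, as in the study. CPM is the count per 1000000 of the library total.

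Tests were edgeR 4.0.16 quasi-likelihood F tests (TMM, filterByExpr, Benjamini-Hochberg over all genes tested, R 4.3.3) with group and Dox time in ESCs, line and Dox time in RA-treated cells, line in OPCs, and 1 joint fit of RA and ESC libraries at 24 and 72 h. SE is the log2 fold change divided by the square root of F. DESeq2 1.42.0 was an alternative. Scripts were tested on simulated data. No pair of libraries was a copy (chi-square of at least 1.85 per gene).

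Members and lists were chosen with earlier results of these data known. Named genes are all members, of each partner list up to 3 called genes per direction by adjusted p in a comparison, of which a selection is printed, and the 3 genes most alike to Tle6 and Lmo3. Lhx8 and Sox1 were not analysed here, and 1 called partner gene is not reported here. In ESCs, replicate differences of H3.3K27M and WT-H3.3 correlated at 0.61 to 0.72 at all 4 times over 8382 genes, so the numbers pair these lines. The SE and adjusted p printed for H3.3K27M in ESCs come from the fit without a replicate block, so this shared difference stays in their spread. The fit with a block called no member there either. Its block term is shared by all ESC groups, and the replicate differences of H3.3K27L ran the other way at 4, 8 and 24 h. That fit therefore cannot take up the shared difference of H3.3K27M and WT-H3.3 in full, and nothing is concluded from it. Promoter windows are from RefSeq (GRCm38.p6); 9 of 10 members had one and Aes had none. OPC libraries at 72 h are headed with the replicate number of those at 24 h, another than in the labels, and were placed by line and time. Python 3.11.15, pandas 2.3.3, NumPy 2.4.6, SciPy 1.17.1 and Matplotlib 3.10.9 were used.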

Additional observations from a re-analysis of the deposited data

Results flagged for a closer look

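Members stood apart in single ESC libraries, by the gap to the nearest library of the same group, and 38 groups were examined. Chance alone gives about 1 such case in 20 groups if values are normally spread. That rate does not hold for Lmo3, where 1 read among libraries without any always stands apart. The H3.3K27L library at 72 h, replicate 2, held 68378 counts, and in it Tle1 was at 14.6 CPM (1 read), Tle2 at 0 CPM, Aes at 58.5 CPM (4 reads), Tle6 at 0 CPM and Ldb1 at 58.5 CPM (4 reads), each the lowest of its group.

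Tle4 was at 182 CPM (2923 reads) in the WT-H3.3 library at 8 h, replicate 2, above the next highest at 136 CPM. Lmo3 had its single read in the WT-H3.3 library at 72 h, replicate 2 (0.0853 CPM) and in the H3.3K27L library at 4 h, replicate 2 (0.127 CPM), where all other libraries of these groups had none.

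Tle2 was lower in the K27M line than in the WT line in both RA pairs (-0.15 on the log2(mean CPM + 0.5) scale) and higher in both OPC pairs (3.67). The RA pairs stood at 4.94 against 4.95 CPM at 24 h and at 0.644 against 1.34 CPM at 72 h. The fitted log2 fold change in RA-treated cells was -0.15 with SE 0.47. The difference between RA-treated cells and OPCs was not tested, since the states were fitted separately, and the RA value rests on few reads at 72 h.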

How the results depend on the processing

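Counts of called members stayed within 1.5 times in 220 of 222 fits that left out 1 library and in 74 of 79 other settings. Many of these are comparisons with 0 called members that stayed at 0. The leave-one-out counts that moved were losses of the Lmo1 call of late against early Dox in ESCs. No fold threshold gave 3 members for late against early Dox in ESCs (in place of 1), 6 for 72 against 24 h in RA-treated cells (in place of 3), and 6 for RA against ESCs at 24 h (in place of 3). In OPCs, where the genes were chosen on that comparison and the count is only a description, it gave 8 in place of 5. DESeq2 gave 0 for late against early Dox, and leaving out 1 library gave 0 to 1. Of 700 log2 fold changes in the other settings 668 were labelled the same, and 0 called values reversed. Outside OPCs that label means the same sign and the same side of the call rule, and the size was not checked. Tle2 in RA-treated cells against ESCs at 72 h, for example, kept it at -0.59 in place of -1.01. In OPCs it means a shift smaller than the spread between the libraries of a line. Counts over all genes moved more. For H3.3K27M in ESCs they were 2 in the fit as reported, 0 at 24 and 72 h alone or with only the libraries compared, 9 by DESeq2, 23 with a replicate block, 152 without the low-count filter and 0 to 131 without 1 library. For H3.3K27L in ESCs they were 481, with 71 at 24 and 72 h alone, 750 without the filter, 1141 without the fold threshold and 119 to 657 without 1 library. GSK343 gave 26 without the filter. Late against early Dox gave 181, with 106 by DESeq2, 368 without the filter, 2385 without the fold threshold and 145 to 343 without 1 library. In RA-treated cells H3.3K27M gave 2, with 16 by DESeq2, 78 without the filter and 0 to 174 without 1 library, and H3.3K27L gave 445, with 851 without the fold threshold and 397 to 931 without 1 library. A fit without Dox time gave 0 for both. The difference of the H3.3K27L effect between states gave 30, with 125 by DESeq2, 151 without the filter and 1 to 72 without 1 library. That of H3.3K27M gave 0, with 21 without the filter. Without the fold threshold OPCs gave 6423 in place of 3482, RA at 72 against 24 h 8496 in place of 5242, and RA against ESCs at 24 h 10121 in place of 6442. The replicate block changed no member call other than that of Tle2 in RA-treated cells against ESCs at 72 h; in OPCs it is also the Dox time. Replicate differences of H3.3K27L and WT-H3.3 correlated at -0.60, -0.71 and -0.68 at 4, 8 and 24 h and at 0.26 at 72 h. The 72 h value includes the library of 68378 counts. Those of GSK343 ran from -0.46 to 0.59, so equal numbers do not pair the libraries of either group with WT-H3.3. For H3.3K27L a block by number cannot take up a shared difference that runs the other way. With 2 libraries per OPC line and 1 per RA line and time, spread was estimated across groups. Where a setting changed a value, the cause was not tested.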
